A study of Danio rerio with 12 samples.

Results

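The genes described are actin regulators of leukocytes: lcp1, coro1a, hcls1, wasa, wasb, arpc1b, arpc2, capgb, fmnl1a and scinlb, 10 symbols that together took 11 of the 35117 gene IDs in the count table. They were chosen by name with measured values of these libraries known, since lcp1 had about halved between the stages, so the change with stage is given below as a description with no test. Of the symbols, 7 were found as such in the table of gene names, and 3 only without the paralogue letter. For wasb the row was ENSDARG00000026350, listed as WAS. For fmnl1a it was ENSDARG00000055713, listed as FMNL1, which may stand for either fmnl1 paralogue. For capgb there were 2 rows listed as CAPG, of which ENSDARG00000099672 carried nearly all counts. The other, ENSDARG00000035560, held between 0 and 5 counts per library and was not tested, so 10 of the 11 IDs passed the filter on low counts. No sequences or coordinates are given for these genes.

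Leukocytes crawl by building and dismantling actin filaments at their leading edge. Nucleation factors of the WASP and WAVE families switch on the Arp2/3 complex, which starts branches on existing filaments, while formins lengthen unbranched ones. Bundling proteins tie filaments together, coronins help to disassemble branches, and the gelsolin family severs and caps filament ends. Blood cells use dedicated forms of several of these proteins, and the genes described here include such forms.

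RNA was sequenced from GFP-positive cells sorted out of whole zebrafish embryos that carried tg(mpeg-GFP), a reporter driven by the promoter of a macrophage gene. The groups were csf1rDM at 50 h post-fertilisation (hpf), control at 50 hpf, csf1rDM at 28 hpf and control at 28 hpf. In csf1rDM embryos both receptor genes were mutant (csf1ra j4e1/j4e1 and csf1rb re01/re01). Control embryos were wildtype with reporter transgenes only, for which the study lists an mCherry line beside the mpeg reporter. Each group had 3 libraries, and a library was a pool of 70 embryos in csf1rDM at 50 hpf and of 35 embryos in the other groups, so p-values measure the spread between pools. Pool size thus went with genotype at 50 hpf and with stage in csf1rDM. Its part in those differences, and in the difference between the stages, cannot be told apart. Csf1ra and Csf1rb are the receptors for colony-stimulating factor 1, which guides the growth and spread of macrophages.

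Library totals lay between 8641139 and 20261650 counts, and levels are given as TMM-normalised counts scaled to a common library size (CPM), which compare libraries for a gene but not genes of different length. The libraries carried macrophage transcripts: MPEG1 (ENSDARG00000055290) averaged 4633 ± 311 CPM in csf1rDM and 3622 ± 96.4 CPM in control at 50 hpf, and 3259 ± 75.0 CPM in csf1rDM and 2548 ± 101 CPM in control at 28 hpf (SD, n = 3 each). Of the mutated receptor genes, csf1rb was lower in csf1rDM, by 0.83 on the log2 scale at 50 hpf and by 0.78 at 28 hpf (adjusted p = 0.014 and 0.0203), and csf1ra passed at neither stage. Markers of other cell types varied between libraries. The summed level of 9 skeletal muscle markers was above 1000 CPM in 4 libraries (csf1rDM 50 hpf replicate 3, control 50 hpf replicates 1 and 2, csf1rDM 28 hpf replicate 3) and between 6.85 and 704 CPM in the rest. The summed level of 6 neutrophil markers was mostly srgn and il6r, by group means. It was above 900 CPM in control 28 hpf replicates 1 and 2 and between 339 and 699 CPM in the others. Genotype calls of the leukocyte genes are given with and without these libraries, and other results only in part. Leaving out those high in muscle markers leaves 1 control library at 50 hpf, and leaving out those high in neutrophil markers leaves 1 at 28 hpf. Calls kept or lost between genotypes at that stage then rest on that library.

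A gene was past the thresholds if it changed by more than 1 on the log2 scale and its adjusted p was under 0.01, and a looser rule took an adjusted p under 0.05 with no fold limit. Among all 16429 genes tested, 5.33% were past the thresholds between csf1rDM and control at 50 hpf and 4.08% at 28 hpf. By the looser rule the shares were 19.9% at 50 hpf and 20.5% at 28 hpf. Of the 10 leukocyte genes tested, 1 was past the thresholds at each stage, scinlb in both cases, and 3 at 50 hpf and 4 at 28 hpf met the looser rule, scinlb among them. Since scinlb had been noticed for these differences in the same libraries, nothing is read from its place in the counts.

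**Figure D1:**
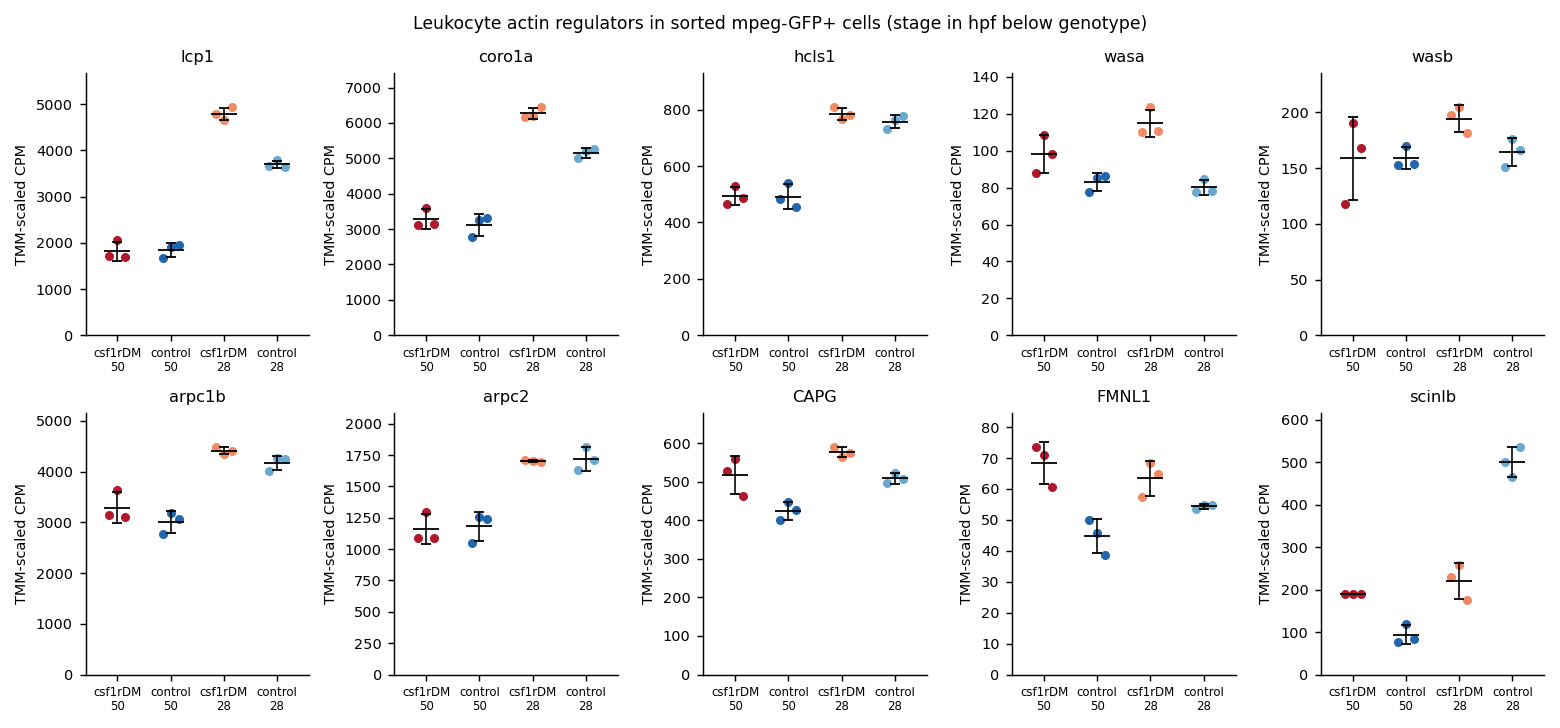
TMM-scaled CPM (vertical axes, from 0) of the 10 genes tested in each library (points) of the 4 groups, with group mean and SD (bars, n = 3). For lcp1 and coro1a every library at 50 hpf lies below every library at 28 hpf, and for scinlb the control libraries are the highest at 28 hpf and the lowest at 50 hpf.

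The filament bundler lcp1 (ENSDARG00000023188, L-plastin) is a classical marker of zebrafish leukocytes. Its level was 1705, 2052 and 1683 CPM in csf1rDM and 1669, 1907 and 1953 CPM in control at 50 hpf. At 28 hpf it was 4784, 4653 and 4930 CPM in csf1rDM and 3655, 3783 and 3647 CPM in control. The genotypes thus overlapped at 50 hpf, while at 28 hpf all csf1rDM libraries lay above all control libraries. Set against 28 hpf, lcp1 at 50 hpf differed by -1.40 ± 0.0749 on the log2 scale in csf1rDM and by -1.004 ± 0.0742 in control (estimate ± SE), a 2.64-fold lower level in csf1rDM and a 2.005-fold lower level in control.

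Between genotypes, lcp1 was 1.30-fold higher in csf1rDM at 28 hpf (log2 difference 0.37 ± 0.0736 SE, edgeR adjusted p = 0.00345), below the fold threshold. At 50 hpf the difference was -0.02, with a 95% interval from -0.18 to 0.14, and its sign turned with the scaling. The difference at 50 hpf minus that at 28 hpf was -0.40 ± 0.104, which did not pass (adjusted p = 0.107). Fits without libraries high in markers of other cells lost the call at 28 hpf. Without the 4 libraries high in muscle markers the difference was 0.33 with an adjusted p of 0.0758, and without the 2 control libraries high in neutrophil markers it was 0.24 with an adjusted p of 0.280, the upper end of a range from 3.26e-05 over all alternatives.

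The branch disassembly factor coro1a (ENSDARG00000054610), the coronin of blood cells, showed levels of 3114, 3600 and 3139 CPM in csf1rDM and 2766, 3265 and 3318 CPM in control at 50 hpf. At 28 hpf the levels were 6167, 6203 and 6439 CPM in csf1rDM against 5004, 5205 and 5263 CPM in control. Here too, the groups overlapped at 50 hpf and were apart at 28 hpf. The genotype difference was 0.08 at 50 hpf (adjusted p = 0.496) and 0.28 ± 0.0679 (SE) at 28 hpf (adjusted p = 0.0111), a 1.22-fold higher level in csf1rDM. Leaving out csf1rDM replicate 3 at 28 hpf ended that call (adjusted p = 0.127), as did leaving out csf1rDM replicate 1 (0.0680) or control replicate 1 (0.121) of that stage. The call was also lost without the 4 libraries high in muscle markers (0.149) and without the 2 high in neutrophil markers (0.699), with 0.000534 as the lowest value over all alternatives. The log2 change with stage was -0.93 in csf1rDM and -0.73 in control.

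The cortactin relative hcls1 (ENSDARG00000012729), which binds the Arp2/3 complex in blood cells, measured 467, 528 and 487 CPM in csf1rDM and 483, 538 and 454 CPM in control at 50 hpf. At 28 hpf it measured 808, 766 and 782 CPM in csf1rDM and 732, 764 and 778 CPM in control. Both stages showed overlapping genotypes, with differences of 0.01 at 50 hpf (95% interval -0.15 to 0.16) and 0.05 at 28 hpf (-0.10 to 0.20). Its stage change was close to equal in size in both genotypes, -0.67 in csf1rDM and -0.62 in control.

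Of the Arp2/3 switch proteins, wasa (ENSDARG00000015149) is one of the zebrafish counterparts of the gene mutated in human Wiskott-Aldrich syndrome. It measured 87.8, 109 and 98.2 CPM in csf1rDM and 77.7, 85.2 and 86.6 CPM in control at 50 hpf. At 28 hpf the values were 110, 123 and 111 CPM in csf1rDM against 77.4, 84.8 and 78.4 CPM in control. All csf1rDM libraries were above all control libraries at both stages. The difference was 0.24 ± 0.0988 at 50 hpf, which did not pass (adjusted p = 0.111), and 0.52 ± 0.0991 (SE) at 28 hpf, which did by the looser rule (adjusted p = 0.00287), a 1.43-fold higher level. Without the 4 libraries high in muscle markers the difference at 28 hpf was 0.52 with an adjusted p of 0.0467, and without the 2 high in neutrophil markers 0.40 with an adjusted p of 0.225, where all alternatives ranged from 1.17e-06 to 0.225.

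The second counterpart, wasb, was more scattered, with 118, 190 and 168 CPM in csf1rDM against 153, 170 and 153 CPM in control at 50 hpf. At 28 hpf it reached 197, 204 and 181 CPM in csf1rDM against 151, 176 and 166 CPM in control. The difference of 0.24 ± 0.142 at 28 hpf did not pass (adjusted p = 0.261), and at 50 hpf its 95% interval ran from -0.31 to 0.31. Neither gene shared the size of the stage change of lcp1, with -0.23 for wasa and -0.29 for wasb in csf1rDM, and 0.05 and -0.05 in control.

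The Arp2/3 subunit arpc1b (ENSDARG00000027063), the form of subunit 1 that is abundant in human blood cells, measured 3135, 3634 and 3103 CPM in csf1rDM and 2775, 3180 and 3067 CPM in control at 50 hpf. The values at 28 hpf were 4490, 4340 and 4409 CPM in csf1rDM and 4004, 4258 and 4247 CPM in control. The second subunit, arpc2 (ENSDARG00000075989), had 1089, 1296 and 1091 CPM in csf1rDM and 1049, 1256 and 1237 CPM in control at 50 hpf, and at 28 hpf 1713, 1703 and 1697 CPM in csf1rDM against 1633, 1817 and 1707 CPM in control. Each subunit was lower in every library at 50 hpf than in any library of its genotype at 28 hpf. The log2 stage changes were -0.42 in csf1rDM and -0.47 in control for arpc1b, and -0.56 and -0.54 for arpc2. Genotype differences passed at neither stage, with adjusted p-values of 0.173 at 50 hpf and 0.396 at 28 hpf for arpc1b, and of 0.856 and 0.938 for arpc2.

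The formin row FMNL1 was higher in csf1rDM at 50 hpf. It measured 73.7, 70.8 and 60.6 CPM in csf1rDM and 49.8, 45.9 and 38.7 CPM in control at 50 hpf. At 28 hpf it measured 57.3, 68.3 and 64.7 CPM in csf1rDM and 53.5, 54.8 and 54.8 CPM in control. No library of one genotype overlapped the other at either stage. FMNL1 was 1.53-fold higher in csf1rDM at 50 hpf (0.61 ± 0.117 SE, adjusted p = 0.00280), under the fold threshold. The call held without the libraries high in neutrophil markers (0.56, adjusted p = 0.0207). Without those high in muscle markers, where 1 control library is left at 50 hpf, the difference was 0.85. All alternatives gave adjusted p-values from 4.42e-06 to 0.0229. At 28 hpf the difference was 0.22 with an adjusted p of 0.204. The difference between the stages in the genotype effect, 0.39 ± 0.165, did not pass (adjusted p = 0.346).

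The barbed-end capping protein CAPG (ENSDARG00000099672), which caps filaments without severing them, measured 526, 559 and 463 CPM in csf1rDM and 401, 447 and 426 CPM in control at 50 hpf. Its values at 28 hpf were 591, 564 and 573 CPM in csf1rDM and 495, 523 and 507 CPM in control. All csf1rDM libraries exceeded all control libraries at both stages. By the looser rule CAPG was 1.22-fold higher in csf1rDM at 50 hpf (0.28 ± 0.0724 SE, adjusted p = 0.0153) and missed it at 28 hpf (0.18, adjusted p = 0.0998). The call at 50 hpf was fragile: it was lost on leaving out 1 of 5 libraries (control 50 hpf replicate 1, 2 or 3, csf1rDM 50 hpf replicate 2, or control 28 hpf replicate 1), with adjusted p-values up to 0.127. It was also lost with no filter on low counts (0.118), without the libraries high in muscle markers (0.216) and without those high in neutrophil markers (0.0948), and the lowest value over all alternatives was 0.000114.

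**Figure D2:**
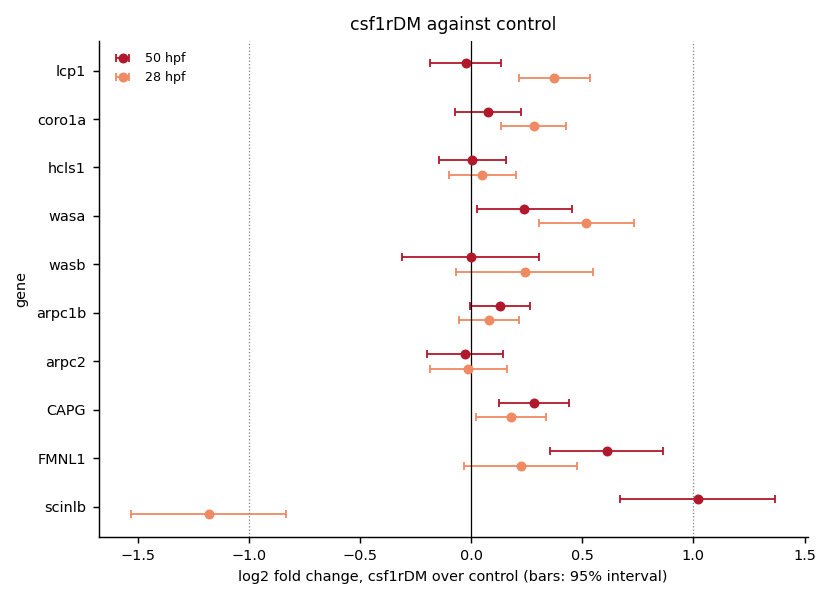
Log2 fold change of csf1rDM over control (horizontal axis) for the 10 genes tested at 50 hpf (dark) and 28 hpf (light), with 95% intervals as bars and dotted lines at the fold threshold of 1 in either direction. scinlb stands at 1.02 at 50 hpf and at -1.18 at 28 hpf, and the other genes lie between -0.03 and 0.61.

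The filament-severing protein scinlb (ENSDARG00000058348), a scinderin-like member of the gelsolin family, had opposite genotype differences at the 2 stages. It had been noticed for this pattern in these libraries beforehand, so its values are a description and carry no p. At 50 hpf it measured 190, 190 and 190 CPM in csf1rDM against 76.6, 120 and 84.9 CPM in control. At 28 hpf it measured 230, 258 and 175 CPM in csf1rDM against 500, 466 and 537 CPM in control. Every csf1rDM library was thus above every control library at 50 hpf and below every one at 28 hpf. The level in csf1rDM was 2.03-fold that of control at 50 hpf (log2 1.02 ± 0.161 SE) and 2.27-fold lower at 28 hpf (-1.18 ± 0.161), and the difference between the stages was 2.199 ± 0.228.

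With stage, scinlb was 5.34-fold lower in control at 50 hpf than at 28 hpf (log2 -2.42), and differed by -0.22 in csf1rDM. The fold at 50 hpf depended on the libraries: it was 0.85 on the log2 scale without control replicate 1 and 0.92 without control replicate 3 of that stage, and 0.99 without control replicate 1 of 28 hpf, in each case under the threshold of 1. The summed neutrophil markers were lower at 50 hpf in both genotypes, so also in csf1rDM, where scinlb differed by only -0.22. The summed level of the 6 markers, none of which was at 0 in any group, ranged from 416 to 482 CPM in csf1rDM and 339 to 419 CPM in control at 50 hpf, and from 504 to 699 CPM in csf1rDM and 588 to 1190 CPM in control at 28 hpf. By their means, srgn and il6r made up most of that sum in every group. Within control at 28 hpf the 3 libraries did not follow that sum: replicate 3 had its lowest value, 588 CPM, and the highest scinlb level. Between genotypes at 28 hpf the single markers went both ways. Lower in csf1rDM were lyz (mean ± SD 38.7 ± 29.3 against 169 ± 115 CPM in control) and npsn (24.98 ± 23.6 against 108 ± 67.8 CPM). So were srgn (310 ± 35.5 against 411 ± 83.5 CPM), mmp13a and MMP9. Only il6r had a higher mean, at 236 ± 14.3 against 207 ± 32.7 CPM. At 50 hpf they went both ways too. Higher means in csf1rDM were those of il6r (181 ± 11.5 against 133 ± 4.89 CPM in control), srgn (242 ± 32.0 against 223 ± 38.1 CPM) and MMP9 (2.18 ± 2.31 against 1.88 ± 0.258 CPM). For srgn and MMP9 that difference lay within the SD. Lower were npsn (0.722 against 6.59 CPM) and mmp13a (0.679 against 2.83 CPM), while lyz averaged 12.8 CPM in both. The part of these markers in the scinlb differences was not tested. Without the 2 control libraries in which the neutrophil sum was above 900 CPM, the scinlb difference was 0.97 at 50 hpf and -1.43 at 28 hpf. Without the 4 libraries high in muscle markers it was 1.11 at 50 hpf and -1.06 at 28 hpf.

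The paralogue scinla (ENSDARG00000102415) had differences of the same direction at both stages. It measured 310, 347 and 329 CPM in csf1rDM against 192, 181 and 187 CPM in control at 50 hpf. At 28 hpf it measured 623, 583 and 710 CPM in csf1rDM against 388, 366 and 390 CPM in control. It was higher in csf1rDM at both stages, by 0.82 at 50 hpf (edgeR adjusted p = 2.26e-05) and by 0.74 at 28 hpf (adjusted p = 6.45e-05). Its level fell with stage in both genotypes, with a log2 change of -0.96 in csf1rDM (adjusted p = 2.13e-06) and -1.03 in control (adjusted p = 1.28e-06). The 2 genes are paralogues, and how reads shared between such copies were counted was not given in the sources used here.

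**Figure D3:**
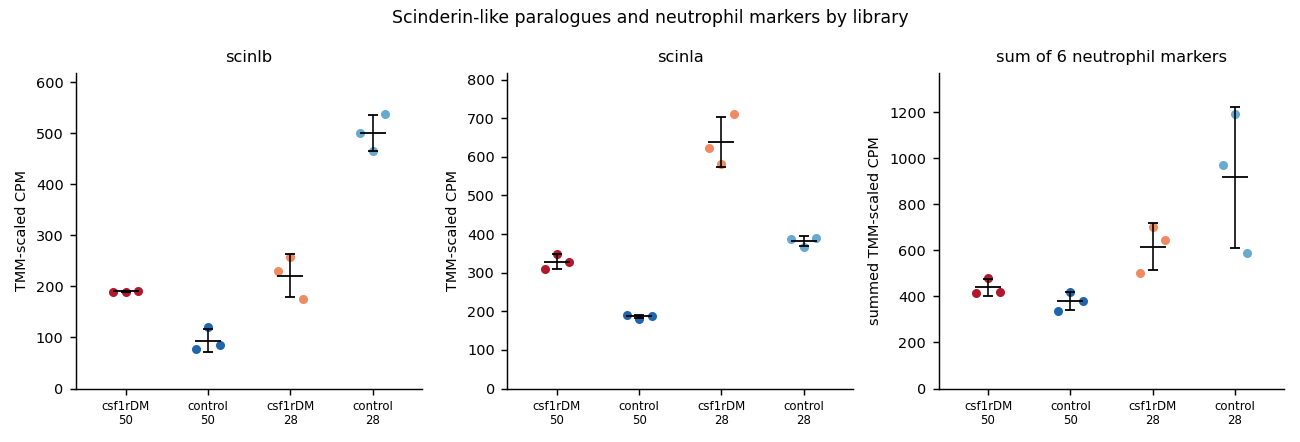
TMM-scaled CPM (vertical axes, from 0) of scinlb and scinla and the summed CPM of 6 neutrophil markers in each library (points) of the 4 groups, with mean and SD (bars, n = 3). scinlb is at 190 CPM in all csf1rDM libraries at 50 hpf and at 466 to 537 CPM in control at 28 hpf, whereas scinla is higher in csf1rDM at both stages.

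Counted together, 4 of the 10 genes had non-overlapping groups with csf1rDM higher at 50 hpf (wasa, CAPG, FMNL1 and scinlb), against 15.4% of all genes tested. At 28 hpf 7 of 10 did (lcp1, coro1a, wasa, wasb, arpc1b, CAPG and FMNL1), against 19.3%. Of 169 other actin regulators tested, described below, 38 did at 50 hpf and 56 at 28 hpf. Since scinlb had been noticed for its difference beforehand, nothing is read from its place in the count at 50 hpf. The median log2 difference of the 10 was 0.10 at 50 hpf and 0.20 at 28 hpf, beside -0.02 and 0.02 over all genes tested. Muscle markers moved with genotype at 28 hpf: their summed level was 109, 704 and 3084 CPM in csf1rDM libraries against 11.4, 16.4 and 10.2 CPM in control libraries, with no marker of the 9 at 0. The sum of 22 macrophage marker IDs was also higher in csf1rDM, with 20449 to 23051 CPM against 16531 to 17764 CPM in control at 50 hpf and 19027 to 19912 CPM against 16860 to 17753 CPM in control at 28 hpf. Single markers of it went both ways. MPEG1 (ENSDARG00000055290), SPI1 and the MFAP4 row ENSDARG00000088745 were higher in csf1rDM at both stages. MRC1, csf1rb and another abundant MFAP4 row (ENSDARG00000090783) were lower at both. ENSDARG00000088745 averaged 5865 CPM in csf1rDM against 3172 CPM in control at 50 hpf, and 3804 against 3017 CPM at 28 hpf. MRC1 averaged 83.2 CPM in csf1rDM against 171 CPM in control at 50 hpf, and 31.7 against 125 CPM at 28 hpf. The part of the muscle markers or of the macrophage sum in the differences was not tested. In bulk RNA, fewer cells of a type and less RNA per cell cannot be told apart.

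Between stages, 7 of the 10 genes were lower in every csf1rDM library at 50 hpf than in any at 28 hpf, where 18.6% of all genes were, and 8 of 10 were in control, where 23.0% of all genes were. The change was larger than 1 on the log2 scale for lcp1 in csf1rDM and for lcp1 and scinlb in control, where lcp1 lay at that limit, at -0.96 without control 50 hpf replicate 1, -0.99 without control 28 hpf replicate 2 and -0.95 without the 4 libraries high in muscle markers. The members were chosen on this contrast, so nothing is read from these shares. The median log2 stage change of the 10 was -0.36 in csf1rDM and -0.51 in control, beside 0.04 and 0.05 over all genes. Leaving out the control 28 hpf libraries high in neutrophil markers leaves 1 control library at that stage. The control change was then -1.11 for lcp1, -0.89 for coro1a, -0.79 for hcls1, -0.66 for arpc2 and -0.63 for arpc1b. It was -2.65 for scinlb, -0.42 for FMNL1, -0.39 for CAPG, -0.19 for wasb and -0.045 for wasa. The changes were graded: lcp1 and coro1a stood first in csf1rDM, hcls1, arpc2 and arpc1b followed, and FMNL1, at 0.11, was the only one with a positive value there. The macrophage marker sum was not lower at 50 hpf in csf1rDM (20449 to 23051 CPM against 19027 to 19912 CPM at 28 hpf) and overlapped in control. Single markers of that sum went both ways in both genotypes. In csf1rDM, MPEG1 (ENSDARG00000055290) averaged 4633 CPM at 50 hpf against 3259 CPM at 28 hpf, and marco 717 against 128 CPM. The MFAP4 row ENSDARG00000088745 averaged 5865 against 3804 CPM there, while the MFAP4 row ENSDARG00000090783 averaged 980 against 2625 CPM. PTPN6 averaged 1572 against 2319 CPM and SPI1 942 against 1482 CPM in csf1rDM. The neutrophil sum was lower at 50 hpf in both genotypes. So was the sum of 7 yolk and liver markers, at 5.48 to 18.5 CPM against 60.1 to 115 CPM at 28 hpf in csf1rDM and 1.67 to 2.37 CPM against 56.3 to 60.9 CPM in control. Most of that sum at 28 hpf was tfa. It averaged 5.24 CPM at 50 hpf against 86.8 CPM at 28 hpf in csf1rDM, and 0.146 against 52.6 CPM in control. In csf1rDM every other marker of the 7 had a higher mean at 50 hpf, but all were scarce. The highest of these means was that of apoa1b, at 2.00 against 0.256 CPM. For vtg1, TTR and serpina1 the SD at 50 hpf exceeded the mean. The part of these marker sums in the stage change was not tested.

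**Figure D4:**
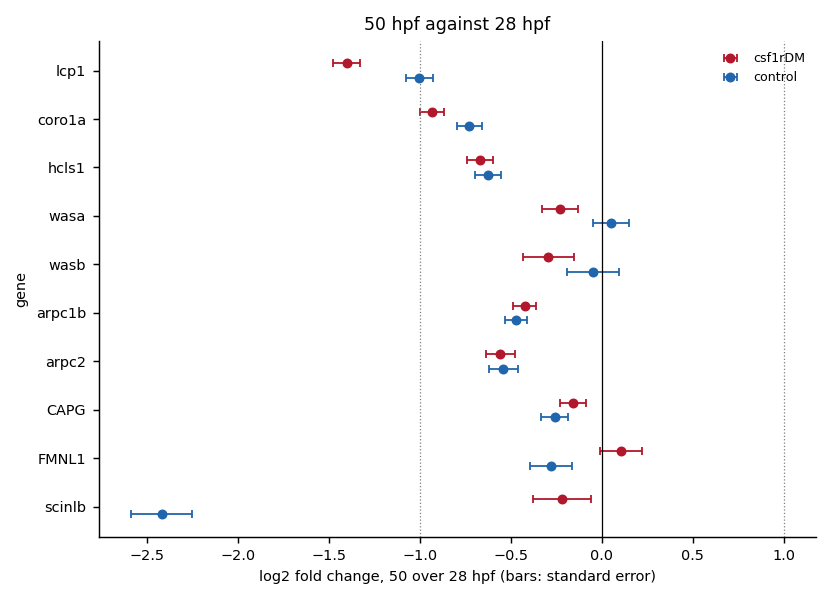
Log2 fold change of 50 hpf over 28 hpf (horizontal axis) in csf1rDM (red) and control (blue) for the 10 genes tested, with standard errors as bars and dotted lines at 1 in either direction. lcp1 stands at -1.40 in csf1rDM and -1.004 in control, and scinlb at -0.22 in csf1rDM and -2.42 in control.

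Likeness to lcp1 was measured as the root mean square difference of log2 CPM profiles, each centred on its own mean, over the 12 libraries. Among 8271 named genes that averaged 10 CPM or more the nearest were ECHDC2 (0.131), unm_sa911 (0.141), PDIA4 (0.148), limd2 (0.154) and PDIA3 (0.154), where the profile of lcp1 itself had a root mean square of 0.623. PDIA3 and PDIA4 encode protein disulfide isomerases of the endoplasmic reticulum. PDIA4 averaged 240 CPM in csf1rDM and 243 CPM in control at 50 hpf, and 681 CPM in csf1rDM and 600 CPM in control at 28 hpf. Of the other members, coro1a was nearest (0.195), with 23 genes nearer than it, and hcls1 next (0.313, with 184 nearer). For FMNL1 and scinlb the differences, 0.623 and 0.703, were as large as the lcp1 profile itself or larger.

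Most other family members of these proteins were scarce in the sorted cells. PLS1, CTTN and the FMNL2, fmnl2b and FMNL3 rows averaged under 4 CPM in every group, PLS3 and a WASL row (ENSDARG00000006283) under 10 CPM, a CORO1C row (ENSDARG00000021193) under 12 CPM, and a second WASL row and SCIN were not tested. The abundant ones were scinla, described above, CORO1C (ENSDARG00000035598), a broadly expressed coronin, and ARPC1A, the other form of Arp2/3 subunit 1. CORO1C averaged 323 CPM in csf1rDM and 415 CPM in control at 50 hpf (at 28 hpf, 511 CPM in csf1rDM and 516 CPM in control) and was lower in csf1rDM at 50 hpf by the looser rule (-0.36, adjusted p = 0.0200). ARPC1A averaged 141 CPM in csf1rDM and 135 CPM in control at 50 hpf, and 137 CPM in csf1rDM and 168 CPM in control at 28 hpf, where it was lower in csf1rDM (-0.30, adjusted p = 0.0271). The coronin coro1b rose with stage in csf1rDM (log2 2.21, adjusted p = 0.00783), at a mean of only 5.50 CPM at 50 hpf and 1.18 CPM at 28 hpf.

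A wider list of 222 symbols of actin regulators was written from general knowledge, but with earlier results of these data known. Its shares are therefore a description. It took 200 further IDs, of which 169 were tested. Between stages, 76 of the 169 in csf1rDM met the looser rule (45.0%, against 27.6% of all genes), 21 of them higher and 55 lower at 50 hpf. In control 64 did (37.9%, against 23.4% of all genes), 18 higher and 46 lower. Shares of all genes by direction are not given for the looser rule. The median stage change of the list was -0.19 in csf1rDM and -0.09 in control, beside 0.04 and 0.05 over all genes. Past the thresholds were 12 in csf1rDM (5 higher, 7 lower), 7.10% against 8.24% of all genes, and 9 in control (3 higher, 6 lower), 5.33% against 6.29% of all genes.

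Of 11 other IDs of Arp2/3 subunits tested between stages, 7 fell in csf1rDM by the looser rule and 1 rose, and 7 fell in control. Those that fell in both were ACTR2, which carries one of the actin-like subunits (-0.50 in csf1rDM and -0.51 in control), ARPC3 (-0.57 and -0.60), ARPC4 (-0.65 and -0.65), arpc4l (-0.49 and -0.67) and 2 ARPC5 rows (ENSDARG00000019062, -0.68 and -0.56, and ENSDARG00000039142, -0.74 and -0.79). None was past the thresholds between stages. In either direction 72.7% of the Arp2/3 IDs in csf1rDM and 63.6% in control met the looser rule, against 27.6% and 23.4% of all genes. The share of all genes that fell by that rule is not given. The subunit that rose, ARPC5L (ENSDARG00000041720), was scarce, averaging 5.82 CPM in csf1rDM at 50 hpf and 2.38 CPM in csf1rDM at 28 hpf. It was the 1 Arp2/3 row past the thresholds between genotypes at 28 hpf (-1.49, adjusted p = 0.00733), named here after its value was seen.

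**Figure D5:**
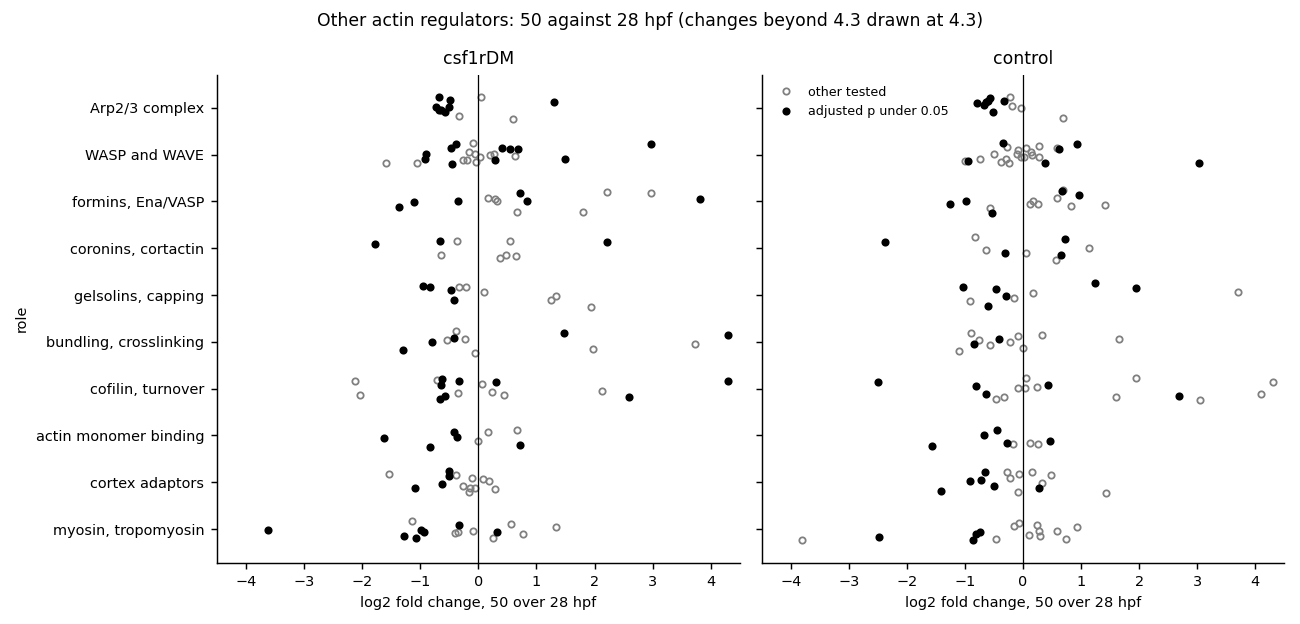
Log2 fold change of 50 hpf over 28 hpf (horizontal axes) in csf1rDM (left) and control (right) for 130 of the 169 other actin regulators tested, by role (rows). Filled points met an adjusted p under 0.05, open points did not. The filled points number 18 higher and 43 lower in csf1rDM and 14 higher and 36 lower in control. Shares of all genes by direction are not given.

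Among single genes of the list, MYL9, a regulatory light chain of nonmuscle and smooth muscle myosin, measured 3.44, 5.79 and 4.37 CPM in csf1rDM at 50 hpf against 56.3, 56.1 and 55.0 CPM at 28 hpf. In control it measured 9.31, 8.61 and 7.61 CPM at 50 hpf against 44.9, 48.4 and 49.6 CPM at 28 hpf. It fell in both genotypes (log2 -3.62 and -2.48, adjusted p = 2.32e-08 and 2.55e-07). The actin monomer-binding thymosin tmsb1 also fell in both (-1.62 and -1.56), and so did lsp1b, a leukocyte F-actin binding protein (-1.08 and -1.42), while the tropomyosin tpm4a was past the thresholds in csf1rDM (-1.28). ABI1 (ENSDARG00000062991), an adaptor of the WAVE complex, rose in both (2.97 and 3.02). In csf1rDM the crosslinker flna rose by 1.47 with stage, to 22.6, 15.8 and 48.0 CPM against 9.23, 10.9 and 11.1 CPM at 28 hpf (adjusted p = 0.00840). That call was lost in 11 of 12 fits without 1 library. Without replicate 3 at 50 hpf the change was 0.87 (adjusted p = 0.0409), and without the 4 libraries high in muscle markers 0.86 (adjusted p = 0.0861).

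Between genotypes, 7 of the 169 were past the thresholds at 50 hpf (3 higher and 4 lower in csf1rDM) and 6 at 28 hpf (2 higher and 4 lower). These were 4.14% at 50 hpf and 3.55% at 28 hpf, against 5.33% and 4.08% of all genes, and the list median was 0.13 at 50 hpf and 0.12 at 28 hpf. Without the 4 libraries high in muscle markers 3 were past them at each stage, as were 3 at 28 hpf without the 2 high in neutrophil markers or without control 28 hpf replicate 1, and 4 at 50 hpf without csf1rDM 50 hpf replicate 1. A WAVE complex adaptor, abi3a, was lower at both stages, with 116, 128 and 122 CPM in csf1rDM against 229, 253 and 263 CPM in control at 50 hpf. Its levels at 28 hpf were 103, 100 and 98.2 CPM in csf1rDM against 255, 243 and 269 CPM in control. Its log2 difference was -1.03 at 50 hpf and -1.35 at 28 hpf (adjusted p = 4.21e-06 and 1.12e-06). ABI1 was lower too (-1.54 at 50 hpf and -1.48 at 28 hpf, adjusted p = 0.00146 and 0.00634). Its call at 28 hpf was lost in 7 of 12 fits without 1 library (adjusted p up to 0.0239) and without the 2 libraries high in neutrophil markers (0.0715). Without the 4 high in muscle markers it was lost at 50 hpf (0.0199) and at 28 hpf (0.0560). At 50 hpf abi3a lay near the fold limit, at -0.98 with RLE scaling and -0.99 without csf1rDM 50 hpf replicate 1.

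The filament elongation factor ENAH was higher in csf1rDM at 50 hpf, with 57.3, 58.8 and 50.2 CPM against 19.6, 19.5 and 15.03 CPM in control (1.62, adjusted p = 1.97e-05). TIAM1, an exchange factor that activates Rac, measured 122, 121 and 126 CPM in csf1rDM against 57.6, 47.6 and 43.2 CPM in control at that stage (1.31, adjusted p = 0.000112). Also at 50 hpf the profilin pfn2b was lower in csf1rDM (-1.08, adjusted p = 5.95e-05), a difference of -0.99 and so under the fold threshold without the 4 libraries high in muscle markers. At that stage flna was higher (1.56, adjusted p = 0.00799), a value that was 0.95 without csf1rDM 50 hpf replicate 3 and 1.17 without the 4 libraries high in muscle markers (adjusted p = 0.114), and whose call was lost in 11 of 12 fits without 1 library. At 28 hpf the class I myosin MYO1G measured 102, 137 and 146 CPM in csf1rDM against 50.9, 51.3 and 55.4 CPM in control (1.29, adjusted p = 0.000116). Without the 2 control libraries high in neutrophil markers its difference was 1.06 (adjusted p = 0.0329). For the difference between the stages in the genotype effect, edgeR called 0 of the 169 past the thresholds, where 0.158% of all genes were. By the looser rule it called 4, 2.37% against 0.919% of all genes (ENAH, arhgap4a, ELMO1 and MYL9, named after their values were seen). There were 31 at an unadjusted p under 0.05, and DESeq2 called 2 past the thresholds. Shares of all genes are not given for the unadjusted and DESeq2 counts, so nothing is read from them.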

How the data were processed

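RNA came from mpeg-GFP+ cells sorted into Trizol, with cDNA amplified by a SMART-seq V4 kit and sequenced in pairs. The submitters' processing notes name CASAVA 1.8, cutadapt, STAR 2.5.4b, Cufflinks 2.2.1, HTSeq 0.11.0 and edgeR, and the GRCz10 (danRer10) build. The strand setting is not given in the sources used here, so overlapping and antisense genes are uncertain. The deposited values are raw whole-number counts per Ensembl gene for 35117 IDs, of which 27000 had a symbol. Amplified reads carry no molecular identifiers, so depth covers counting error only.

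Counts were tested in R 4.3.3 with edgeR 4.0.16 (filterByExpr by group, TMM, glmQLFit and glmQLFTest), all 12 libraries in 1 fit with a mean per group. Benjamini-Hochberg adjustment ran over the 16429 genes of each contrast, and contrasts with a group in common use the same libraries of it. Standard errors come from the fold change and its F statistic. The fit was tested on simulated data. The members and lists were chosen with earlier results of these data known. Named genes were the members, their listed paralogues, up to 4 rises and 4 falls of the actin list per contrast past the thresholds with a mean of at least 10 CPM, the 5 genes nearest to lcp1, and csf1ra, csf1rb and mpeg1 as checks. Some results of the actin list are not reported here. Replicates correlated at 0.919 to 0.983 across genes and differed by more than sampling noise (chi-square per degree of freedom 5.30 to 25.6). Alternatives covered scaling, DESeq2 1.42.0, the filter, the libraries in the fit, a replicate block and leaving out each library. Fits without the libraries high in muscle or neutrophil markers were added after seeing the data.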

Additional observations from a re-analysis of the deposited data

Results flagged for a closer look

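The genotype effect on scinlb (ENSDARG00000058348) differed in direction between the stages. The log2 fold change of csf1rDM over control was 1.02 at 50 hpf and -1.18 at 28 hpf, a difference of 2.199. All 3 csf1rDM libraries lay above all control libraries at 50 hpf and below all of them at 28 hpf. It is listed because this difference was past the thresholds in the fit across all genes. The gene was known for this pattern in these libraries beforehand, so that is no independent evidence of it and the values are a description.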

How the results depend on the processing

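The values of the 10 genes were recomputed under other scalings, DESeq2, other filters, the contrast's libraries alone, a replicate block and without each library, and, added after seeing the data, without the 4 libraries high in muscle markers or the 2 high in neutrophil markers, where 1 control library is left at 50 or 28 hpf and is assumed to vary like the others. Of 600 such values between genotypes or for the difference between stages, 537 kept direction and side of the thresholds, 5 fell below them (all scinlb at 50 hpf) and 58 changed sign, none of which had met either rule with all libraries. Only scinlb had been past the thresholds, and calls by the looser rule are not in that count. Those of lcp1, coro1a and wasa at 28 hpf and of CAPG at 50 hpf were lost in some fits, as given above. Of 440 further values, the changes with stage and the scinlb difference between stages, 427 kept their sign and side of the fold limit of 1, 5 fell under that limit (all lcp1 in control, to between -0.95 and -0.999) and 8 changed sign (wasa and wasb in control, between -0.045 and 0.0026).

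At 50 hpf lcp1 was 0.025 (RLE scaling), 0.033 (upper quartile), 0.022 (DESeq2) and 0.014 (the contrast's libraries alone), and -0.13 to 0.017 without 1 library. For wasb these were 0.044, 0.050, 0.041 and 0.033, with 0.012 at 10 counts in every library and -0.15 to 0.17 without 1 library. For arpc2 they were 0.022, 0.029, 0.018 and 0.011, and -0.15 to 0.013. hcls1 gave -0.037 with no filter, -0.043 without the libraries high in neutrophil markers, and -0.073 to 0.052 without 1 library. coro1a gave -0.034 without those high in muscle markers, and -0.043 to 0.11 without 1 library. At 28 hpf, without the libraries high in neutrophil markers, hcls1 was -0.14 and arpc1b -0.095. Without 1 library they were -0.046 to 0.067 and -0.0073 to 0.094, and arpc2 was -0.092 to 0.026 (0.0081 with upper quartile). The difference between stages was 0.011 (RLE), 0.0080 (DESeq2), 0.053 (muscle) and 0.094 (neutrophil) for hcls1, -0.10 to 0.047 without 1 library, and 0.042 (RLE), 0.021 (upper quartile), 0.039 (DESeq2) and 0.076 (neutrophil) for arpc2, -0.11 to 0.059 without 1 library. For arpc1b it was -0.023 to 0.13 without 1 library.

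At 50 hpf the count past the thresholds among the 10 genes was 0 with no filter and without the libraries high in neutrophil markers, and 0 to 1 without 1 library. For the difference between stages it was 0 without those high in neutrophil markers. Between stages in control it was 1 with 10 counts in every library, with the contrast's libraries alone and without those high in muscle markers, and 1 to 2 without 1 library (1 without control 50 hpf replicate 1 or control 28 hpf replicate 2), since lcp1 lay at the fold limit. The looser rule gave 3 at 50 hpf, 4 at 28 hpf, 5 for stage in csf1rDM and 7 in control. The actin list gave 3 at 28 hpf and 3 at 50 hpf without the libraries high in muscle markers, and 3 at 28 hpf without those high in neutrophil markers. Without 1 library it gave 3 to 8 at 28 hpf (3 without control 28 hpf replicate 1) and 4 to 9 at 50 hpf (4 without csf1rDM 50 hpf replicate 1). For stage in csf1rDM it gave 7 with the contrast's libraries alone. For the difference between stages it gave 2 with DESeq2, 1 with no filter and 1 at 10 counts in every library. The looser rule gave 41, 35, 76, 64 and 4 for genotype at 50 hpf, at 28 hpf, stage in csf1rDM, stage in control and the difference between stages. Shares of all genes in the other fits are not given, so these counts show only how the calls moved. The causes were not tested.

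Whether the replicate numbers pair the libraries is not known. Same-numbered pairs correlated at -0.357 to 0.168 (4 of 18 above 0.1) and the other pairs at -0.236 to 0.282. Among csf1rDM at 28 hpf, control at 28 hpf and csf1rDM at 50 hpf all same-numbered pairs were positive. With the replicate block the count of the 10 genes past the thresholds stayed at 1 at each stage and that of the actin list was 4 at 28 hpf and 6 at 50 hpf. The difference between stages uses all libraries, so the contrast's libraries alone gave no further value for it.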
